A study of Mus musculus with 12 samples.

Results

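Skin of alopecic mice that received only vehicle for 12 weeks was compared with skin of the same mice at the start of treatment. The 6 arrays of vehicle mice, 3 at week 0 and 3 at week 12, were taken from the 12 arrays of the topical treatment experiment. They were selected by their labels (vehicle control, sampling at week 0 or week 12), and the animal number in each label tied every week 12 sample to the week 0 sample of the same mouse. All animals, in the vehicle and the baricitinib group alike, were of the strain C3H/HeJ and had been grafted with alopecic skin from other C3H/HeJ mice. They were then kept until alopecia was nearly complete, and vehicle or baricitinib, a JAK1 and JAK2 inhibitor, was applied to the skin daily. The labels give neither age nor sex, nor the body site of each biopsy, and no group of untouched or healthy skin was used here. The vehicle mice are named mouse 1, mouse 2 and mouse 3 below, and every triplet of values is given in that order.

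Values were log2 RMA levels from an array with 45037 probe sets after 64 control probe sets were left out, so that a difference of 1 is a doubling of the measured signal. The authors' methods state that 1 baricitinib array at each time point, and 1 control array at baseline whose experiment is not clearly named, did not pass quality control. Which arrays these were is not named, and all 12 arrays were used, so values are also given without single arrays where that matters. The median correlation with the other arrays was 0.963 to 0.979 for the vehicle arrays, and the lowest values of all, 0.945 and 0.951, belonged to 2 baricitinib arrays. The mean signal difference between the 3′ and 5′ ends of control transcripts, a measure of RNA and labelling quality, was 1.23 in the week 0 array of mouse 1 and 2.97 to 4.08 in the other 5 vehicle arrays. Markers of skin were at 11.55 to 13.29 in every vehicle array, while Alb, Umod and Gfap, markers of liver, kidney and glia, lay between 1.65 and 4.98 together with Apoa1, Sftpc and Ins2. Cyp2e1, an enzyme known from liver, was present at 6.31 to 11.11.

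Alopecia areata is an autoimmune loss of hair in which CD8+ T cells that carry NKG2D gather around growing hair follicles. Interferon-gamma from these cells raises antigen presentation and the chemokines that bring in more T cells, and interleukin-15 made by the follicle sustains them. Both cytokines signal through Janus kinases. The vehicle mice show how these programmes and those of the hair follicle stood in established disease when no inhibitor was given.

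No probe set differed between week 12 and week 0 at an adjusted p under 0.05 (limma with Benjamini-Hochberg adjustment, 0 of 45037 higher and 0 lower, 0%). Before adjustment, 557 probe sets with p under 0.05 were higher and 551 were lower. Together these were a smaller share of the 45037 probe sets than 0.05, the share that would be met on average without any difference. The p-values and standard errors (SE) rest on the spread between animals, 3 per group, pooled over vehicle and baricitinib arrays at both time points. This fit did not pair the week 0 and week 12 arrays of a mouse, so neither measures the spread of the changes within the vehicle mice. Each gene was represented by its probe set of highest mean level, which gave 18193 genes, and each of the values below belongs to a gene that did not pass the adjusted threshold. The median difference over all genes was 0.05. Of all genes, 42.2% had a mean difference below 0, 10.7% were lower at week 12 in all 3 mice, and 17.8% were higher in all 3 mice. Where groups are said below not to overlap, this only describes the values of that gene. The share of all genes with such groups is not given.

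The differences were weakly related between mice. Across all probe sets the difference between time points in mouse 1 had a correlation of -0.03 with that in mouse 2 and 0.03 with that in mouse 3, and the correlation between mice 2 and 3 was 0.13. Probe sets are not independent replicates, and these values are given as a description. The spread of the differences (SD over probe sets) was 0.649 in mouse 1, 0.475 in mouse 2 and 0.551 in mouse 3. In mouse 1, 2814 probe sets were over 1 log2 unit lower and 1950 were over 1 log2 unit higher, against 985 and 1184 in mouse 2 and 1639 and 1325 in mouse 3. Across all 3 mice, 43 probe sets were lower by over 1 log2 unit in each mouse and 29 were higher by that much in each.

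By the probe set that represented each gene, 26 named genes were lower and 20 were higher by over 1 log2 unit in each mouse. Among the lower genes were the fast myosin Myh4, the keratin Krt42, the interferon-inducible genes Ubd, Cxcl11, Apol11b and Mx1, the granzyme gene Gzmb, the chemokine gene Ccl3, the macrophage gene Acod1, the MHC class II gene H2-Ea and the haem synthesis gene Alas2. Among the higher genes were the homeobox genes Hoxc10 and Hoxa9, the leptin gene Lep, the lipogenic gene Thrsp, the Langerhans cell lectin gene Cd207, the guidance ligand gene Sema3a and the lymphatic growth factor gene Vegfd. The genes are described below by group, beginning with those of the disease process.

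Interferon-stimulated genes were lower at week 12 in vehicle skin, without passing the adjusted threshold. Of 34 measured antiviral genes, 33 had a mean difference below 0 and 22 were lower in all 3 mice, against 10.7% of all genes. The median of this list was -0.56, beside 0.05 over all genes, and it was -0.91 in mouse 1, -0.49 in mouse 2 and -0.32 in mouse 3. The list median was -0.23 without the week 0 array of mouse 1 and -0.21 without the week 12 array of mouse 3. Of 18 genes induced mainly by interferon-gamma, 17 had a mean difference below 0 and 9 were lower in all 3 mice, with a median of -0.43. Its medians were -0.73 and -0.60 in mice 1 and 2 and -0.04 in mouse 3, where 10 genes were below 0 and 8 above. In bulk skin, fewer cells of a type and less RNA per cell cannot be told apart.

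The interferon-gamma list began with its ligand. Ifng was at 8.30, 7.36 and 7.52 at week 0 and at 7.20, 6.73 and 6.47 at week 12, a mean difference of -0.93. All 3 week 12 values were below all 3 week 0 values. Downstream of it, Ubd, a ubiquitin-like protein that marks proteins for degradation, was at 12.39, 11.30 and 10.01 at week 0 and at 10.01, 9.39 and 8.20 at week 12. The mean difference was -2.03 (SE 0.69), the lowest of the list, and it was between -2.38 and -1.80 in each mouse. The groups touched, since mouse 3 began near the level at which mouse 1 ended.

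The 3 ligands of the T cell receptor CXCR3 were lower in every mouse. Cxcl9 was at 12.24, 12.17 and 11.19 at week 0 and at 10.93, 10.42 and 10.41 at week 12, with a mean difference of -1.28 (SE 0.39). Cxcl10 was at 11.91, 10.86 and 9.86 and then at 10.13, 9.30 and 8.99, a mean difference of -1.40 (SE 0.48). Cxcl11 was at 11.37, 10.73 and 9.31 and then at 9.26, 8.45 and 8.27, a mean difference of -1.81 (SE 0.47). For Cxcl9 and Cxcl11 the groups did not overlap, and for Cxcl10 mouse 3 at week 0 lay below mouse 1 at week 12. In these 3 genes mouse 1 was highest at both time points and mouse 3 was lowest at both.

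Antiviral effectors followed the same order of mice at the start. Mx1, a GTPase that blocks influenza viruses, was at 10.14, 9.81 and 9.20 at week 0 and at 9.02, 8.28 and 7.81 at week 12, with a mean difference of -1.34 and no overlap between the groups. Oasl1, a relative of the oligoadenylate synthetases, was at 7.96, 6.88 and 5.82 and then at 6.29, 5.19 and 4.87, and its difference of -1.44 was the lowest of the antiviral list. Ifit3, which binds viral RNA complexes, was at 10.45, 9.65 and 8.87 and then at 7.98, 8.62 and 8.70, a mean difference of -1.22. In Ifit3 mouse 3 barely differed between time points, while mouse 1 differed by over 2 units. The regulators were split. Irf7, which amplifies the interferon response, had a difference of -1.08, whereas Irf9, a partner in the complex that binds interferon response elements, was the highest of the list at 0.16 and was the single member higher in all 3 mice.

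The interferon-induced GTPases, which attack intracellular parasites, had smaller differences. Gbp2 was at 10.32, 10.79 and 10.25 at week 0 and at 9.86, 9.89 and 10.21 at week 12 (difference -0.47), and Gbp3 had a difference of -0.62. Igtp was at 12.04, 12.63 and 12.06 and then at 12.14, 12.26 and 12.20. Igtp was thus among the brightest of the interferon genes at both time points, with overlapping groups. Socs1, the inhibitor of Janus kinases, was the highest of the interferon-gamma list at 0.18.

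The promoters of 5 of these genes are shown because they hold the core of the interferon-stimulated response element (ISRE), GAAA, any pair of bases, GAAA, on either strand. Each window is 60 bases of the RefSeq promoter sequence of the C57BL/6J reference (build GRCm38.p6), written 5′ to 3′ on the strand of the gene, with the matched core in capitals. In Cxcl10 the core reads forward and begins 213 bases before the transcription start, and in Ifit3, Rsad2, Gbp3 and Apol11b it reads in reverse, 156, 120, 45 and 50 bases before the start.
Cxcl10, chr5:92349068-92349127 (minus strand): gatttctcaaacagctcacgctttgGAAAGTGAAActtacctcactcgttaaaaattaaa
Ifit3, chr19:34583348-34583407 (plus strand): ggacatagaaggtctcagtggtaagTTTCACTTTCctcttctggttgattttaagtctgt
Rsad2, chr12:26456538-26456597 (minus strand): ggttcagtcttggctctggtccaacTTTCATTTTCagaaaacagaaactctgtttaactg
Gbp3, chr3:142559974-142560033 (plus strand): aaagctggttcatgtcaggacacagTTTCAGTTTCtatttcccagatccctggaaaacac
Apol11b, chr15:77643302-77643361 (minus strand): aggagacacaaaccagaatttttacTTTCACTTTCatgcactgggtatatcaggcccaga

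A promoter of 300 bases was found for 14368 genes, and 523 of them (3.64%) held the core. It was present in 11 of 24 antiviral genes with a promoter (45.8%) and in 8 of 12 interferon-gamma-induced genes (66.7%). Genes holding the core had a median difference of -0.00 and 16.3% of them were lower in all 3 mice, beside 0.05 and 10.7% over all genes with a promoter. Without the genes of both interferon lists, 504 genes held it, their median was 0.02 and 14.3% were lower in all 3 mice. For the core bound by STAT factors after interferon-gamma (TTC, any 3 bases, GAA), 1231 promoters (8.57%) matched, the median was 0.04 and 11.4% were lower in all 3 mice. A match is a description of the letters in the window. Ifit3 held a further ISRE core in reverse, 122 bases before the start, and Ifit1 and Gbp2, which are not printed, also held it. The same search found no ISRE core lying before the start for Ubd, Cxcl9, Cxcl11, Mx1, Gzmb, Ccl3, Acod1, Irf7, Oasl2 or Usp18. For these genes a missing promoter sequence was not told apart from a missing core.

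Apol11b, a member of the apolipoprotein L family, was the gene of the printed set with the lowest mean difference. It was at 8.85, 7.91 and 7.95 at week 0 and at 7.44, 5.53 and 6.04 at week 12 (difference -1.90), with no overlap between groups. Its probe set carries the suffix of sequences that can cross-hybridise with related genes. A further probe set for it, without that suffix, had a difference of -1.79. Rsad2, an enzyme that makes a chain-terminating nucleotide against viruses, had a difference of -1.08.

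Genes of cytotoxic lymphocytes were lower as a group. All 21 measured genes had a mean difference below 0 and 12 were lower in all 3 mice, with a median of -0.65 that was -0.42 in mouse 1, -0.46 in mouse 2 and -1.10 in mouse 3. Gzmb, the granzyme that starts cell death in target cells, was at 10.20, 8.85 and 8.94 at week 0 and at 8.34, 7.28 and 7.59 at week 12. The difference was -1.59 (SE 0.49, unadjusted p = 0.007608 from limma), the lowest of the list, and the groups did not overlap. Xcl1, a chemokine made by killer lymphocytes, was at 8.11, 6.84 and 6.68 and then at 5.53, 6.17 and 5.42 (difference -1.50). Gzma had a difference of -1.23, with mouse 3 lowest at week 12 at 8.40. Prf1, the pore-forming protein, was at 6.63, 5.96 and 5.97 and then at 6.21, 5.86 and 5.53 (difference -0.32), a smaller difference than that of Gzmb. Gzmg, a granzyme gene that was not in this list, ran the other way in every mouse. It was at 2.94, 2.63 and 2.36 and then at 5.29, 5.14 and 3.38, values near or below the median level of all probe sets (5.24).

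The genes that define T cells as a lineage differed less than their effector genes. Of 18 T cell genes, 13 had a mean difference below 0 and 3 were lower in all 3 mice, with a median of -0.18 (-0.19, 0.16 and -0.52 in mice 1 to 3). Cd8a, the co-receptor of cytotoxic T cells, was at 9.21, 9.78 and 10.26 at week 0 and at 9.80, 9.19 and 9.17 at week 12, a difference of -0.37. By this probe set Cd8a was higher at week 12 in mouse 1 and lower in mice 2 and 3. A further bright probe set for Cd8a was at 9.53, 9.40 and 9.72 and then at 9.36, 9.24 and 8.59. It was lower in all 3 mice (difference -0.49), without overlap. A dimmer probe set had a difference of -0.18 (-1.38, 0.03 and 0.81 in the mice), and the remaining probe sets lay at the dim end of the array. Cd3e was at 9.61, 9.80 and 10.02 and then at 9.75, 9.73 and 9.28. The lowest member was Pdcd1, the inhibitory receptor of activated T cells, at 6.11, 5.55 and 5.79 and then at 4.92, 4.90 and 4.58 (difference -1.02), without overlap. The highest was Cd6 at 0.31, and the costimulator Icos had a difference of -0.19.

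**Figure D1:**
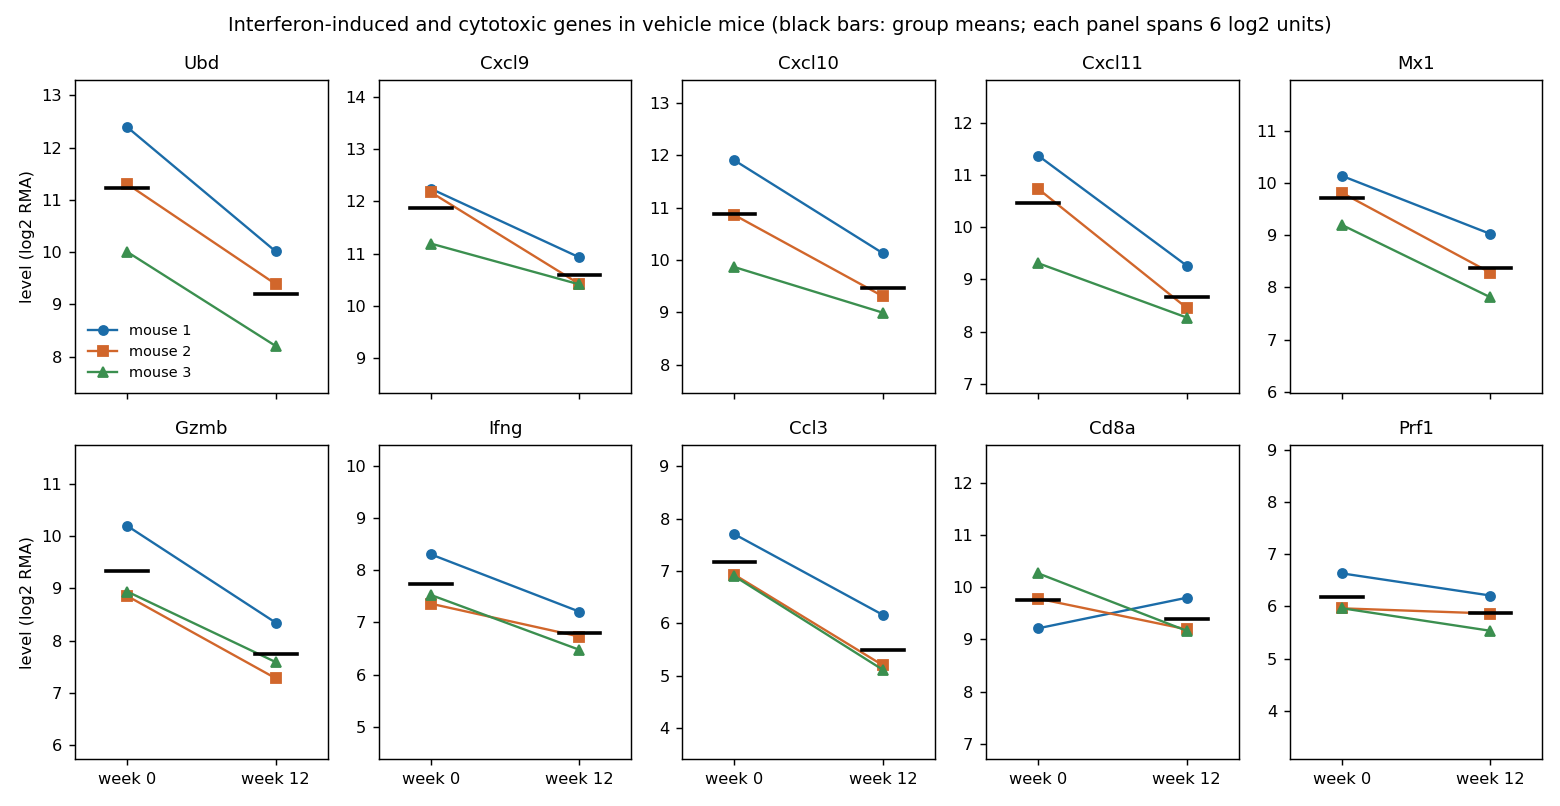
Log2 RMA level (vertical axis) of 10 interferon-induced and cytotoxic genes in the 3 vehicle mice at week 0 and week 12; each line is a mouse and black bars are group means. Lines for Ubd, Cxcl9, Cxcl10, Cxcl11, Mx1, Gzmb, Ifng and Ccl3 run down in every mouse. Cd8a, shown by its probe set of highest mean level, runs up in mouse 1, and the lines of Prf1 are nearly flat.

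Antigen presentation genes and their cytokines had list medians nearer to 0. Of 12 genes of the MHC class I pathway 11 had a mean difference below 0, yet the median was -0.23 and the range ran from -0.56 for the peptide transporter Tap2 to 0.02 for H2-D1. For 9 MHC class II genes the median was 0.00, with -0.68 in mouse 1, 0.21 in mouse 2 and 0.32 in mouse 3. H2-Ea, a class II gene that was not in this list, was lower by over 1 unit in each mouse, with mean differences of -1.75 and -1.39 for its 2 probe sets. The median was -0.01 for 19 genes of the cytokines that use the common gamma chain and of their receptors and kinases, from -0.60 for Il2rb to 0.50 for Stat6. Il15 was at 6.80, 7.57 and 8.04 at week 0 and at 7.79, 7.58 and 8.21 at week 12, so that only mouse 1 differed by a clear margin. For 7 genes of adhesion and of NKG2D ligands the median was -0.25, from the integrin Itgb2 at -0.53 to the ligand H60c at 0.71.

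Chemokine ligands had a median of -0.54 over 22 genes, with 8 lower and 1 higher in all 3 mice. The median was -1.23 in mouse 1, -0.26 in mouse 2 and 0.02 in mouse 3, and -0.24 when both arrays of mouse 1 were left out. Ccl3, which draws in lymphocytes and macrophages, was at 7.70, 6.93 and 6.90 at week 0 and at 6.16, 5.19 and 5.11 at week 12 (difference -1.69, SE 0.40, unadjusted p = 0.001318 from limma). Each mouse was lower by 1.5 to 1.8 units and the groups did not overlap. Ccl22, which attracts helper and regulatory T cells, was the highest of the list, at 7.55, 7.17 and 6.51 and then at 8.37, 8.0 and 7.42 (difference 0.85). In the 17 innate and helper cytokine genes the median was -0.06, from Il6 at -1.01 to Il33 at 0.54.

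Macrophage genes were lower at week 12 in mouse 1 and mostly higher in mice 2 and 3, where 15 and 17 of 20 genes were above 0. The median of 20 genes was -0.35, made of -2.27 in mouse 1, 0.33 in mouse 2 and 0.37 in mouse 3, and it was 0.46 when both arrays of mouse 1 were left out. The mean level of the list was 9.51, 8.09 and 7.95 at week 0 and 7.65, 8.40 and 8.33 at week 12. C1qa, a complement subunit made by macrophages, was at 9.23, 4.84 and 4.33 and then at 5.51, 5.20 and 4.41, and the Fc receptor gene Fcgr1 was at 8.98, 5.98 and 6.08 and then at 5.79, 5.99 and 6.05. The week 0 array of mouse 1 thus stood alone in these genes, and it was also the vehicle array with the low difference between transcript ends (1.23). The part of that array's quality in the macrophage values was not tested. B and plasma cell genes had a median of -0.38 over 10 genes and of -0.02 when both arrays of mouse 1 were left out.

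Acod1, the enzyme by which activated macrophages make itaconate, was lower in each mouse rather than in mouse 1 alone. It was at 8.03, 7.49 and 6.60 at week 0 and at 5.67, 5.54 and 5.30 at week 12, a difference of -1.87 (SE 0.38, unadjusted p = 0.000374 from limma). The groups did not overlap, and the difference was -1.30 in mouse 3, where the macrophage list had a median above 0.

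Mast cell genes were on the other side. Of 9 mast cell genes 8 had a mean difference above 0 and 5 were higher in all 3 mice, against 17.8% of all genes. The median was 0.61, with 0.06 in mouse 1, 0.87 in mouse 2 and 1.09 in mouse 3, and it was 0.24 without the week 12 array of mouse 3. The lowest was the histamine-forming enzyme Hdc at -0.27, and the highest was Ms4a2, a chain of the IgE receptor, at 5.63, 6.90 and 8.12 and then at 6.94, 8.11 and 8.66 (difference 1.02). Cpa3, a mast cell protease, was at 7.69, 9.61 and 10.02 and then at 8.29, 10.26 and 10.59. Mouse 1 had the lowest mast cell levels at both time points.

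Cd207, the lectin of Langerhans cell granules, was at 7.18, 7.70 and 7.50 at week 0 and at 8.63, 8.76 and 8.54 at week 12. The difference was 1.19 (SE 0.30, unadjusted p = 0.001994 from limma), and the groups were separated by nearly 1 unit. The other dendritic and Langerhans genes did not follow it, since the median of the 12 genes was -0.06 and the lowest, Flt3, was at -0.41. For 8 neutrophil genes the median was -0.15.

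**Figure D2:**
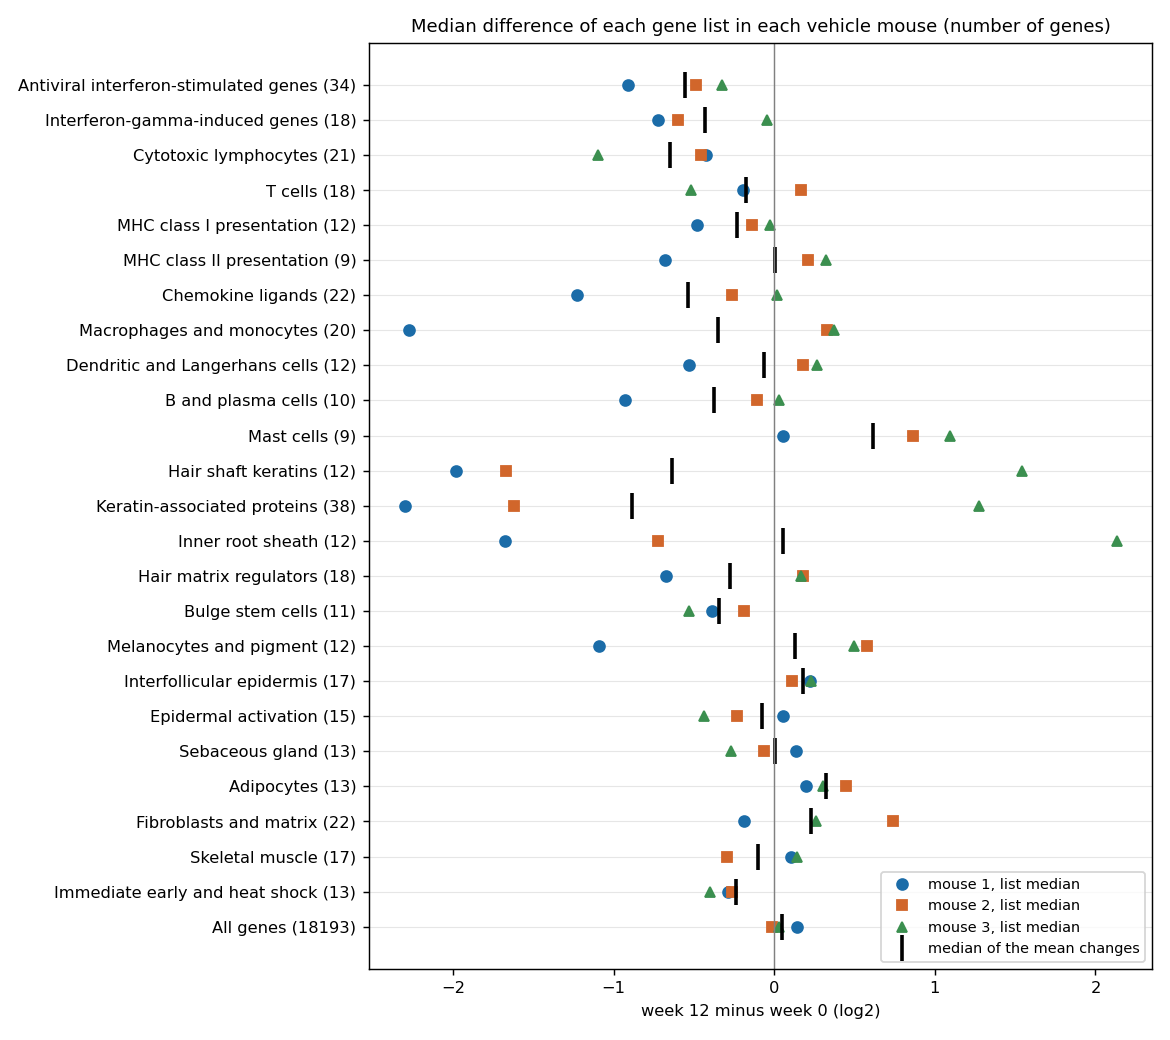
Median difference between week 12 and week 0 (log2, horizontal axis) of each gene list in each vehicle mouse; coloured symbols are the 3 mice, black ticks are the medians of the mean differences, and numbers in parentheses count the genes. The antiviral, interferon-gamma and cytotoxic lists lie below 0 in every mouse, adipocyte and interfollicular lists lie above 0 in every mouse, with the interferon-gamma list close to 0 (-0.04) in mouse 3, and hair shaft lists lie near -2 in mouse 1 and above 1 in mouse 3.

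The hair follicle programmes ran in different directions in different mice. The mean level of 12 hair shaft keratins was 10.32, 9.13 and 6.23 at week 0 and 8.37, 7.67 and 7.68 at week 12. Mice 1 and 2 were lower at week 12 and mouse 3 was higher, so that levels that spanned over 4 units at week 0 lay within 1 unit of each other at week 12. The list median of the mean differences was -0.64, made of -1.98, -1.67 and 1.54, and it was -1.83 when both arrays of mouse 3 were left out and 0.13 when those of mouse 1 were left out. All 12 keratins had a mean difference below 0, from Krt83 at -1.14 to Krt82 at -0.26, and none was lower in all 3 mice.

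The single genes followed their lists. Krt31, an acidic keratin of the hair cortex, was at 11.49, 10.47 and 6.18 at week 0 and at 9.29, 8.76 and 8.94 at week 12, with a mean difference of -0.38. Krt82, a keratin of the cuticle, was at 9.66, 9.11 and 5.32 and then at 7.96, 7.23 and 8.13. In both genes mouse 3 had the lowest value of all 6 vehicle arrays at week 0. The mean differences changed sign when single arrays were left out, from -1.98 to 0.67 for Krt31, from -2.27 to 0.75 for Krt33b and from -1.79 to 0.56 for Krt82. Keratin-associated proteins, which cross-link hair keratins, had a median of -0.89 over 38 genes (-2.30, -1.62 and 1.28 in mice 1 to 3), and their mean level was 11.10, 9.54 and 6.26 at week 0 and 8.75, 7.98 and 7.58 at week 12. Members of this family are similar in sequence, and their probe sets may share signal.

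The inner root sheath, the layer that moulds the growing shaft, had a mean level of 11.36, 10.20 and 7.60 over 12 genes at week 0 and of 9.74, 9.54 and 9.63 at week 12. The median was 0.06, with -1.68, -0.73 and 2.13 in the mice. Mouse 3 was the low animal at week 0 here too, and the mice were nearly level at week 12. Pkp1, a desmosome protein counted among the hair genes of the disease score, had a difference of 0.11.

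**Figure D3:**
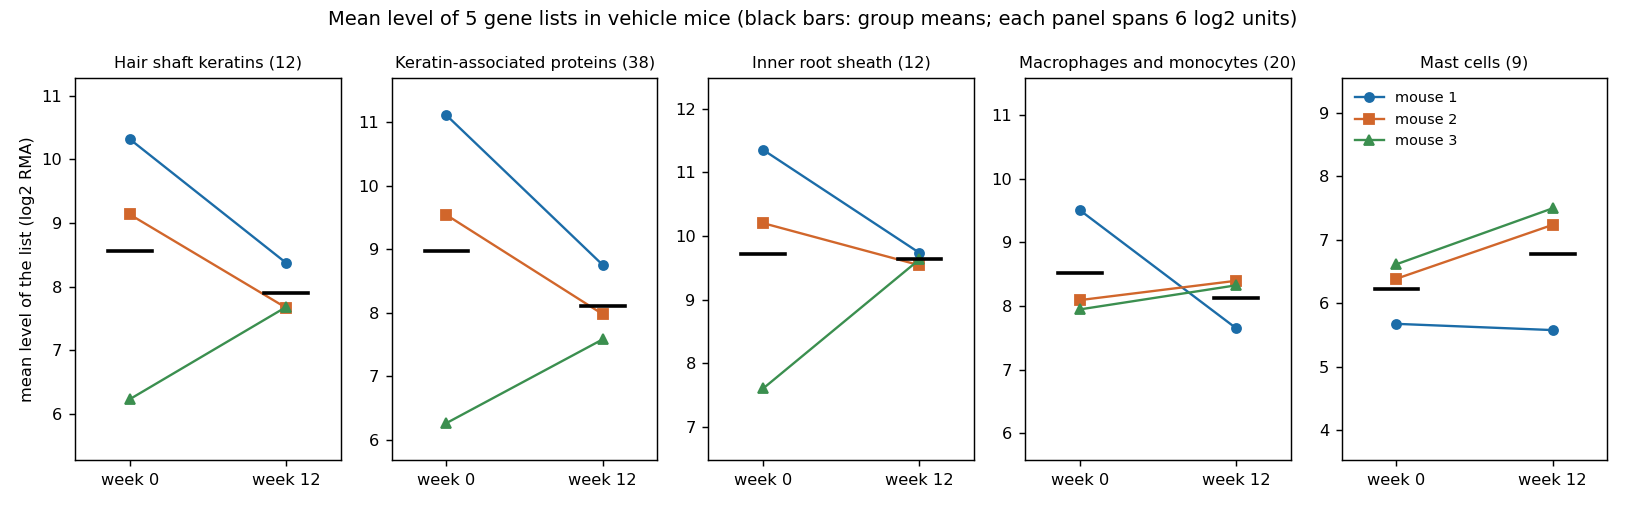
Mean log2 RMA level (vertical axis) of 5 gene lists in the 3 vehicle mice at week 0 and week 12; each line is a mouse, black bars are group means and numbers in parentheses count the genes. Hair shaft and inner root sheath lines converge at week 12, with mouse 3 going up and mice 1 and 2 going down, the macrophage list is high only in mouse 1 at week 0, and the mast cell list is higher at week 12 in mice 2 and 3.

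The regulators of the follicle had a median of -0.28 over 18 genes, made of -0.68 in mouse 1, 0.18 in mouse 2 and 0.17 in mouse 3, and it lay between -0.44 and 0.19 when arrays or mice were left out. Hoxc13, the homeobox gene that controls hair keratins, was at 10.40, 9.24 and 8.35 at week 0 and at 9.28, 8.60 and 7.50 at week 12. Its difference of -0.87 was the lowest of these regulators and it was lower in all 3 mice, unlike the keratins themselves. The ligand gene Wnt3 was the highest of this list, at 7.57, 8.02 and 7.81 and then at 8.92, 9.01 and 8.33 (difference 0.95, without overlap). Of 11 bulge stem cell genes 5 were lower in all 3 mice and the median was -0.35. Sox9, needed for follicle stem cells, was at 10.61, 10.17 and 9.80 and then at 10.22, 8.91 and 8.23 (difference -1.07), and the stem cell receptor gene Lgr6 was the highest at 0.77.

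Signals of the resting phase and of the hair cycle had a median of -0.01 over 14 genes. The lowest was Fgf5, the growth factor that ends hair growth, at 6.78, 5.45 and 4.74 at week 0 and at 4.47, 4.72 and 4.10 at week 12 (difference -1.23), and the highest was the Wnt inhibitor gene Dkk1 at 0.41. Dermal papilla genes had a median of 0.13, from Hhip at -0.75 to Crabp1 at 0.85. Among 12 pigment cell genes the median was 0.13, made of -1.09 in mouse 1 and 0.58 and 0.49 in mice 2 and 3. Cell cycle genes, which are high in growing follicles, had a median of -0.08 over 27 genes, with a range from Kif11 at -0.55 to Prc1 at 0.29. The mice ran in different directions, with medians of -0.34, 0.24 and -0.05. In mouse 1, 26 of the 27 genes were below 0, and in mouse 2, 24 were above 0, while mouse 3 had 15 below and 12 above.

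The epidermis between follicles differed little and evenly. Of 17 interfollicular genes 16 had a mean difference above 0 and 9 were higher in all 3 mice, with a median of 0.18 that was 0.22, 0.11 and 0.23 in the mice. The medians over all genes were 0.14, -0.01 and 0.03 in the mice. Krt2, a keratin of the upper epidermis, had the largest difference of the list, 1.77, but it was at 3.29, 2.80 and 2.95 at week 0 and at 3.25, 4.30 and 6.80 at week 12, so that mouse 3 carried most of it. Genes of epidermal activation had a median of -0.08. Defb4, a defensin, was the lowest of them, at 8.71, 6.37 and 4.14 and then at 6.45, 4.79 and 3.24 (difference -1.58), and it was lower in each mouse with overlapping groups. Sprr2d, of the cornified envelope, was the highest at 0.89.

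Fat genes were also higher for the most part. Of 13 adipocyte genes 11 had a mean difference above 0 and 6 were higher in all 3 mice, with a median of 0.32 and mouse medians of 0.20, 0.45 and 0.30. In mouse 1, 6 of the 13 genes were below 0, against none in mouse 2 and 3 in mouse 3. Over all genes the mouse medians were 0.14, -0.01 and 0.03, so the adipocyte median of mouse 1 lay close to that of all genes. Lep, the satiety hormone of fat, was at 4.12, 4.62 and 4.63 at week 0 and at 5.23, 6.34 and 6.48 at week 12 (difference 1.56, without overlap), and the adipokine gene Retn had a difference of 1.03. Thrsp, which drives fatty acid synthesis, was at 5.52, 6.95 and 8.26 and then at 7.00, 9.58 and 9.67 (difference 1.84). The adipocyte median was 0.10 without the week 12 array of mouse 3 or the week 0 array of mouse 1, and 0.68 without the week 12 array of mouse 1. Sebaceous gland genes had a median of 0.01. Elovl3, an elongase of sebum lipids, was at 9.06, 7.90 and 7.84 and then at 7.28, 7.33 and 6.68 (difference -1.17), and Scd3, a desaturase of the gland, was the highest at 1.44.

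Over 22 fibroblast and matrix genes the median was 0.23, with 8 higher and 4 lower in all 3 mice. It was -0.19 in mouse 1, where 13 genes were below 0, and 0.74 and 0.26 in mice 2 and 3, and it lay between -0.01 and 0.55 when arrays or mice were left out. Col6a2 was the highest, at 9.83, 10.85 and 11.66 at week 0 and at 10.90, 11.89 and 11.95 at week 12 (difference 0.80). The lowest were Mmp13, a collagenase of tissue remodelling, at 7.10, 7.49 and 8.22 and then at 6.89, 6.88 and 4.10 (difference -1.65), and Tnc, a matrix protein of healing tissue, with -1.58. In Mmp13 mouse 3 carried most of the difference, and in Tnc mouse 1 did, which began at 11.54 and ended at 8.74. Endothelial genes had a median of 0.09, from Flt1 at -0.82 to Cldn5 at 0.84.

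Immediate early genes and heat shock genes, which respond to handling as well as to growth signals, were lower for the most part. Of 13 genes 10 had a mean difference below 0 and 7 were lower in all 3 mice, with a median of -0.24 (-0.29, -0.26 and -0.40 in the mice), which lay between -0.48 and -0.10 when arrays or mice were left out. Fos was at 11.01, 10.03 and 10.13 at week 0 and at 9.28, 9.04 and 8.53 at week 12 (difference -1.44, SE 0.41), without overlap, and Atf3 had a difference of -0.74. Hspa1a was the highest at 0.48. Clock genes had a median of 0.17, from Bhlhe41 at -0.35 to Per1 at 0.77. Alas2, the first enzyme of haem synthesis in red cells, was at 5.87, 5.63 and 5.91 and then at 4.52, 4.12 and 4.29 (difference -1.49), whereas the haemoglobin gene Hba-a1 had a difference of 0.08.

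The gene with the lowest mean difference of all named genes was Myh4, the myosin heavy chain of the fastest skeletal muscle fibres. It was at 11.96, 12.95 and 13.02 at week 0 and at 9.03, 7.80 and 6.21 at week 12. The mean level was 12.64 ± 0.60 (SD, n = 3) at week 0 and 7.68 ± 1.42 at week 12, a difference of -4.96 (SE 1.33), or a 31.2-fold higher level at week 0. The mouse differences were -2.93, -5.15 and -6.81, and the groups did not overlap. A separate probe set for Myh4 was at 7.24, 6.84 and 6.57 and then at 3.08, 2.57 and 2.89 (difference -4.03, SE 0.74, unadjusted p = 0.000169 from limma). This probe set passed the adjusted threshold in fits of fewer arrays. Its adjusted p from limma was 0.0376 with only the vehicle arrays, 0.000454 without the baricitinib week 12 array of replicate 1 and 0.00168 without the pair of arrays of lowest correlation, in each case as the only call of the vehicle comparison and with all 3 mice lower. That pair includes the same baricitinib array. This probe set was at 6.69 there, against 3.41 and 2.88 in the other baricitinib week 12 arrays. Leaving that array out thus removed most of the spread of its group, and the calls without it are not separate support. The probe set was not called when the fit of the vehicle arrays took the pairing by mouse as a block (smallest adjusted p 0.118 over all probe sets).

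Of the other skeletal myosins none was lower in all 3 mice. Myh1, of fast fibres, was at 10.35, 12.36 and 12.44 at week 0 and at 12.49, 12.66 and 13.29 at week 12 (difference 1.10), Myh2 had a difference of 0.99 and Myh8, a perinatal form, of 1.19. Myh3, an embryonic form, had -0.51 (1.11, -2.10 and -0.55 in the mice), and Myh7, of slow fibres, had 0.51 (0.36, -2.18 and 3.35). In mouse 2, 4 of the 6 myosins were below 0. Over 17 skeletal muscle genes the median was -0.10, and the mean level of the list was 10.58, 11.76 and 11.75 at week 0 and 10.86, 11.05 and 11.42 at week 12. Acta1 and Tnnt3, of the thin filament, Mylpf, a myosin light chain, and Atp2a1, the calcium pump, had differences between -0.06 and 0.05. The mean levels of the list overlapped between the time points. Actn3, the alpha-actinin of fast fibres, had a difference of -0.81. Mouse skin biopsies can hold the thin muscle sheet beneath the dermis, and the labels do not give the depth of the biopsies.

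The gene with the highest mean difference was Hoxc10. It was at 4.81, 3.08 and 3.05 at week 0 and at 6.47, 7.89 and 7.44 at week 12, with means of 3.65 ± 1.01 (SD, n = 3) and 7.27 ± 0.73. The difference was 3.62 (SE 0.93, unadjusted p = 0.002276 from limma), and was 1.66, 4.81 and 4.39 in the mice. The week 0 values of mice 2 and 3 lie at the dim end of the array, and the gene entered the comparison through its week 12 level. Hoxa9 was at 6.56, 6.81 and 7.27 and then at 8.08, 9.11 and 9.43 (difference 1.99, SE 0.57), or 3.97-fold higher. Neither gene's groups overlapped, which follows in part from choosing genes with a large difference of the same sign in every mouse. A further probe set for Hoxa9 had a difference of 0.39.

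Hox genes are set by position along the body during development, and adult skin keeps that pattern, with groups of high number towards the tail. Hoxa10 was at 5.70, 6.63 and 6.45 at week 0 and at 6.70, 7.30 and 8.56 at week 12 (difference 1.26), and Hoxc9 had a difference of 0.85. Hoxd9, Hoxb9 and Hoxd10 had differences of 0.22, 0.12 and -0.07, and Hoxc13, described above with the follicle, was lower in all 3 mice (-0.87). Hoxc8, of a neighbouring group, was at 9.23, 10.58 and 10.75 and then at 9.91, 10.52 and 10.77, with overlapping levels. Lists of Hox genes above the median level were made after the values were seen. In groups 9 to 13, 6 of 8 genes had a mean difference above 0, with a median of 0.54 (0.86, 0.72 and 0.58 in the mice). In groups 1 to 8, 13 of 16 genes were above 0, with a median of 0.20 (0.53, 0.03 and 0.05), and Hoxc5 was the highest at 0.67. The part of the biopsy site in the values of the Hox and myosin genes was not tested.

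Myh4, Hoxc10 and Hoxa9 in baricitinib mice, which share neither animals nor arrays with the vehicle mice, divided by animal. Myh4 was at 12.65, 12.66 and 12.31 at week 0 and at 13.07, 9.25 and 5.94 at week 12. Hoxc10 was at 5.31, 4.45 and 4.42 and then at 2.58, 6.95 and 6.16, and Hoxa9 was at 6.30, 6.32 and 6.34 and then at 6.62, 9.22 and 8.76. Baricitinib mouse 1 thus had neither the low Myh4 nor the high Hoxc10 and Hoxa9 at week 12, and baricitinib mice 2 and 3 had both, as all 3 vehicle mice did. Not all Hox genes divided in this way. In baricitinib mice 1 to 3 the differences were -0.08, 3.54 and 1.75 for Hoxa10, 0.18, 3.25 and 1.89 for Hoxb9, and -0.31, 2.16 and 0.57 for Hoxd9. Hoxd10 was higher in all 3 (1.64, 1.38 and 1.21), and Hoxc9 had -1.25, 0.17 and -0.23. The week 12 array of baricitinib mouse 1 was one of the pair of lowest median correlation (0.951). Its difference between transcript ends was 3.454, against 1.265 and 1.312 in the week 12 arrays of baricitinib mice 2 and 3. The part of array quality in this division was not tested.

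**Figure D4:**
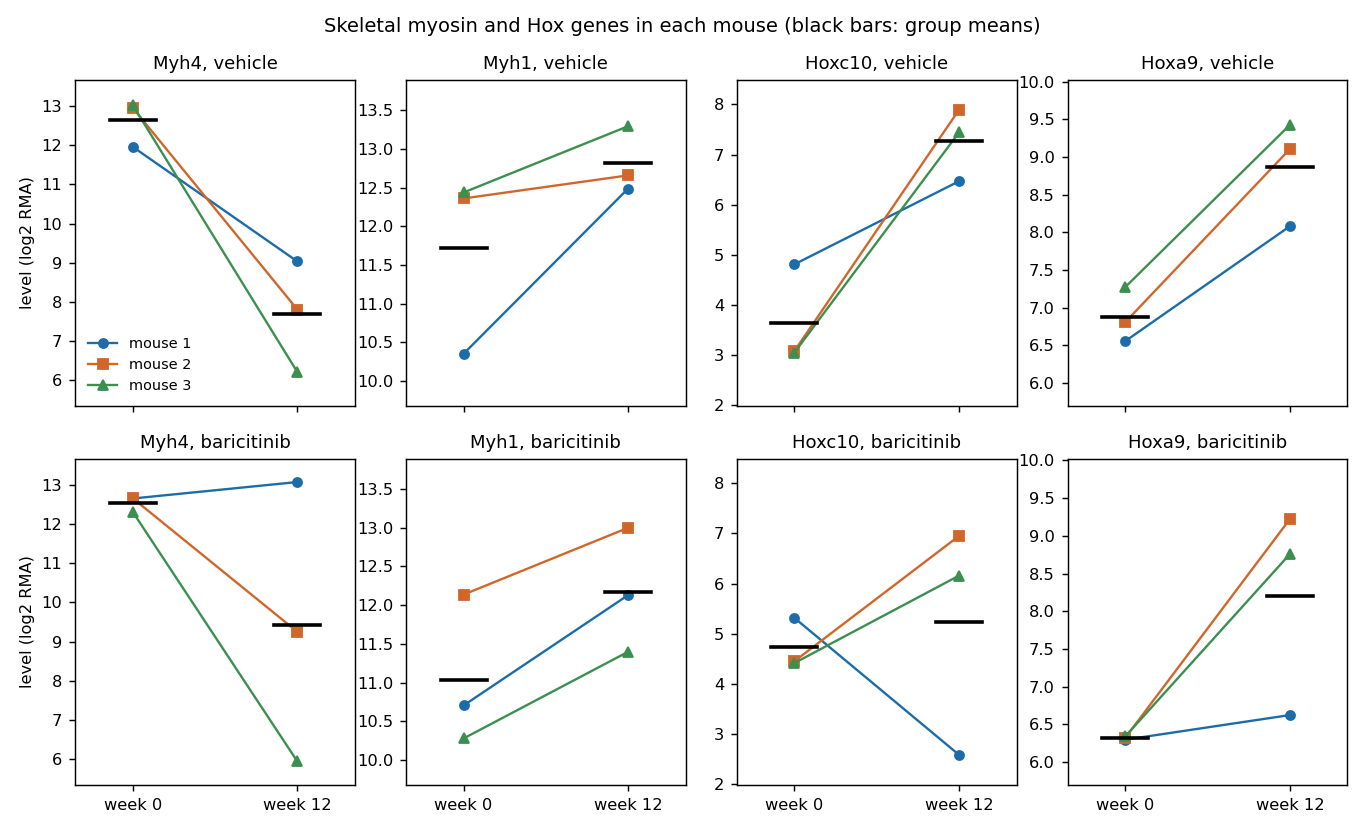
Log2 RMA level (vertical axis) of Myh4, Myh1, Hoxc10 and Hoxa9 at week 0 and week 12 in vehicle mice (upper row) and baricitinib mice (lower row); each line is a mouse and black bars are group means, and the vertical range differs between genes. In vehicle mice Myh4 goes down and the Hox genes go up in all 3 animals, and in baricitinib mice the same holds for mice 2 and 3 and not for mouse 1.

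Further genes among the 12 lowest that were lower in all 3 mice came from several tissues. Krt42, a keratin of the nail and hair unit, was at 8.98, 10.19 and 9.24 at week 0 and at 7.83, 7.75 and 6.21 at week 12 (difference -2.21, SE 0.64), and a further probe set for it had -1.50. Pcdh8, a cell adhesion gene, had a difference of -2.20 and a further probe set of -2.0, and Gprin3, at -2.14, and Scrg1, at -2.04, had groups that did not overlap. The probe sets that represented Krt42 and Pcdh8 carry the suffix of sequences that can cross-hybridise, and their further probe sets do not. Slc15a2, a peptide transporter, was at 10.14, 9.15 and 9.27 and then at 8.82, 6.97 and 6.84 (difference -1.98), but 2 further probe sets for it had -0.18 and -0.29. Slc5a5, the iodide transporter, and Ifi209, an interferon-inducible gene, had differences of -2.01 and -1.93, with further probe sets at -0.41 and -0.32. The last of the 12 were Mgam at -2.20, with mouse 3 farthest apart at 7.76 and 3.49, and 2310061N02Rik at -1.97, with mouse 1 farthest apart at 9.26 and 5.43.

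Among the 12 highest, most shared a low value in mouse 1 at week 0. Gsdmc2, of the pore-forming gasdermins, was at 4.26, 6.86 and 7.19 at week 0 and at 7.95, 8.13 and 8.73 at week 12 (difference 2.17, SE 0.68, 4.49-fold). Tmie was at 5.31, 7.76 and 7.52 and then at 8.68, 8.49 and 9.05, and Vgll2, a muscle cofactor, was at 3.93, 7.12 and 7.10 and then at 7.17, 7.79 and 8.79. In these genes mouse 1 at week 0 lay over 2 units below the other 5 vehicle arrays, and the part of its low difference between transcript ends in these values was not tested. Ces2f and Timp4, at 1.95 and 1.88, and Adcyap1r1 and Pls1, at 1.69 and 1.62, also had their lowest value in that array. Mucl1 was at 3.83, 4.55 and 4.0 and then at 5.28, 6.23 and 7.11 (difference 2.08), without such a gap. Nav3 had 1.61 and further probe sets at -0.15 and -0.73.

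The course with vehicle was also set against the course with baricitinib, as the change with the inhibitor minus the change with vehicle. No probe set passed the adjusted threshold in limma (0 of 45037, 0%), the smallest adjusted p was 0.0758, while 1359 probe sets lay above 0 and 1466 below it with an unadjusted p under 0.05. Cxcl9 and Cxcl11 were among those closest to the threshold, with differences of change of -3.74 and -4.50 and an adjusted p of 0.08104 for both. For Cxcl11 the mean change was -1.81 with vehicle, lower in all 3 mice. When each gene was tested by 1 probe set, 4 genes were higher and 8 lower, and Cxcl9 and Cxcl11 were among the lower genes, with an adjusted p of 0.04264 for each. With the mean of the probe sets of each gene, 3 genes were higher and 4 lower, and neither Cxcl9 nor Cxcl11 was among them.

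Gsdmc2 had opposite courses in the treatments. It was at 6.72, 4.92 and 5.95 in baricitinib mice at week 0 and at 3.23, 2.91 and 3.76 at week 12, against the higher values with vehicle, and the difference of change was -4.73 (adjusted p = 0.2068 from limma). The hair genes of the inner root sheath included Krt73, with a difference of change of -5.36 (adjusted p = 0.04102 with 1 probe set per gene), where the mean difference was -0.37 with vehicle and -5.73 with baricitinib. The inner root sheath list had medians of -1.68, -0.73 and 2.13 in the vehicle mice, so its mean differences with vehicle join opposite courses. Celsr3, of planar cell polarity, had -2.45 (adjusted p = 0.03439 with 1 probe set per gene) and was higher in all 3 vehicle mice, by 1.33 on average. Neither Krt73 nor Celsr3 passed the adjusted threshold in the fit over all probe sets. Acod1 was lower in both treatments, by a mean difference of -1.87 with vehicle and -4.97 with baricitinib, and had a difference of change of -3.10 (adjusted p = 0.1445). The count of calls depended on several choices. Without the baricitinib week 12 array of replicate 1, one of the pair of lowest correlation, 23 probe sets were higher and 32 lower, and with the difference between transcript ends as a covariate 5 were higher and 12 lower.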

How the data were processed

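Total RNA of flash-frozen skin was labelled and hybridised to Affymetrix Mouse Genome arrays, 12 of them in the topical experiment. The authors deposited log2 values made by RMA, run for each experiment separately; its version is not given in the sources used here. The authors' methods state that some arrays failed quality control without naming them, and all 12 were used here. No sequencing depth applies, and the number of arrays limits the precision.

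Groups and animal numbers came from the labels. In R 4.3.3, limma 3.58.1 (lmFit, eBayes) was fitted to 4 group means over 12 arrays, with Benjamini-Hochberg adjustment over 45037 probe sets and a threshold of 0.05, for week 12 minus week 0 with vehicle and for the change with baricitinib minus that with vehicle. Of the probe sets 34945 had 1 symbol in the platform annotation, 932 had several and 9160 had none, and a gene name was taken only from the first kind. Tables and plots were made in Python 3.11.15 with pandas 2.3.3 and matplotlib 3.10.9. The scripts were tested on simulated data.

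Named genes were, among genes whose higher vehicle group mean lay above the median level of 5.24 and with 1 sign in all 3 mice (so that a gene could enter through 1 time point alone), the 12 with the largest difference in each direction, the study's disease score genes, any gene called, and the extremes of each list. Other members were named after their values were seen. Members and lists were chosen with earlier results of these data known, and lists are described by counts and medians without a test. Some genes of the lists are not reported here.

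Since the labels give the same animals at both time points, the numbers pair the samples. Deviations from the group means correlated at 0.44, -0.13 and 0.49 between the time points of the vehicle mice. No arrays were duplicates. Promoters came from RefSeq (250 bases before to 50 after the start) and were matched by gene ID, 14368 of 18193 genes. Alternatives were cyclic loess, median centring, array weights, a filter on dim probe sets, 1 probe set or the mean per gene, vehicle arrays only (with and without the mouse as a block), the mouse as a fixed or random block, and leaving out arrays or mice. A covariate for the 3′ to 5′ difference and leaving out the 2 arrays of lowest correlation were added after seeing the data.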

Additional observations from a re-analysis of the deposited data

How the results depend on the processing

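In the vehicle comparison no probe set was called under most alternatives. With the mouse as a block, which uses the pairing of the samples, 0 were higher and 0 lower (579 and 551 at an unadjusted p under 0.05), the difference from baricitinib also gave 0 and 0, and the block changed no call of either fit over 12 arrays. As a random block its correlation was -0.0039. Array weights gave 2411 higher and 2575 lower for vehicle, and 3245 higher and 3345 lower for the difference from baricitinib, but the weights did not converge and ranged up to 32.1 for a single array. A single Myh4 probe set, 1 lower, was called with only the vehicle arrays and with the 2 arrays of lowest correlation left out. With only the vehicle arrays and the mouse as a block, which uses the pairing, that call was lost (0 higher and 0 lower, smallest adjusted p 0.118). Leaving out 1 array or mouse gave 0 to 1 lower and 0 to 0 higher, the 1 being Myh4 without the baricitinib week 12 array of replicate 1. That array was also 1 of the 2 of lowest correlation and held the highest Myh4 level of its group, so these calls are not separate. For the difference from baricitinib, cyclic loess gave 1 higher, 1 probe set per gene 4 higher and 8 lower, the mean per gene 3 and 4, the 3′ to 5′ covariate 5 and 12, and the 2 arrays left out 16 and 19. Leaving out 1 array or mouse gave 0 to 23 higher and 0 to 32 lower, the largest counts without that same baricitinib array, and leaving out baricitinib week 0 replicate 2 gave 1 and 2. The median of the antiviral list was between -0.85 and -0.21 when arrays or mice were left out. For the 37 named genes and 28 alternatives, 1000 values kept direction and call, 24 passed the threshold (all with array weights) and 12 changed sign: Icos went from -0.48 to 0.10, Krt31 from -1.98 to 0.67, Krt33b from -2.27 to 0.75 and Krt82 from -1.79 to 0.56. The cause of these differences was not tested. Levels near 3 on the log2 scale lie at the dim end of the array, and differences between them are limited by background.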
